A study of Mus musculus with 6 samples.

Results

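The epidermal growth factor (EGF) receptors and their ligands were followed in tumours of a mouse cutaneous squamous cell carcinoma, a cancer of skin keratinocytes, with and without Kindlin-1. Kindlin-1, the product of Fermt1, is an adaptor that binds beta integrin tails and takes part in integrin activation. The members were 3 receptor genes (Egfr, Erbb2 and Erbb3) and 7 ligand genes (Areg, Ereg, Hbegf, Tgfa, Btc, Epgn and Nrg1), taken by name and matched through Ensembl identifiers. All 10 were among the 37991 genes listed in the files, and 7 of them passed the filter on low counts. Tumour libraries of both genotypes were compared, 3 with the genotype Kindlin-1 Null (the gene knocked out) and 3 with the genotype Kindlin-1 WT (the gene expressed). All 6 are labelled as tumours of the same squamous carcinoma line. The labels give no host strain, age, sex or treatment, and do not say how many knockout clones or animals the Null tumours stand for. Their titles give Null libraries 2 and 3 a common mouse number and WT libraries 1 and 2 another, while the file of Null library 3 is named for a different mouse. Libraries are counted as n here, and p-values measure the spread between libraries, which may be partly technical.

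ERBB receptors are tyrosine kinases of the cell surface that act as dimers. EGFR binds amphiregulin (Areg), epiregulin (Ereg), heparin-binding EGF-like growth factor (Hbegf), transforming growth factor alpha (Tgfa), betacellulin (Btc) and epigen (Epgn), while neuregulin-1 (Nrg1) binds ERBB3 and ERBB4. ERBB2 has no known ligand of its own and ERBB3 is a weak kinase, so both signal with a partner. The ligands are made as membrane-bound precursors that proteases of the ADAM family cut free. In the epidermis, keratinocytes make several of these ligands for themselves, and the pathway is known for its part in their growth, wound closure and carcinogenesis.

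Several of the ligand genes lie side by side on mouse chromosome 5, in the order Epgn, Ereg, Areg and Btc, with no other protein-coding gene between them in the RefSeq annotation of GRCm38.p6. The start-site windows of 3 of them (250 bases before to 50 bases after the start) are shown because Areg stood apart from the other 2 in Null tumours. Per kilobase of exon, in reads per 1000000 reads in genes (CPM), Areg averaged 3.88 ± 1.30, Btc 0.287 ± 0.281 and Epgn 0.0409 ± 0.0709 in Null tumours (SD, n = 3). Btc and Epgn were too scarce to pass the filter. In WT tumours Areg (0.479 ± 0.830) did not stand apart from Btc (0.499 ± 0.748). RefSeq windows were at hand for 6 of the 10 members. Erbb3, Ereg, Hbegf and Nrg1 are named only. Capitals mark the matches of 4 motifs searched on both strands: the cAMP response element (CRE) TGACGTCA, the AP-1 site TGANTCA, the TATA box TATAAA and the TEAD site GGAATG.
Areg promoter, chr5:91139349-91139648, plus strand: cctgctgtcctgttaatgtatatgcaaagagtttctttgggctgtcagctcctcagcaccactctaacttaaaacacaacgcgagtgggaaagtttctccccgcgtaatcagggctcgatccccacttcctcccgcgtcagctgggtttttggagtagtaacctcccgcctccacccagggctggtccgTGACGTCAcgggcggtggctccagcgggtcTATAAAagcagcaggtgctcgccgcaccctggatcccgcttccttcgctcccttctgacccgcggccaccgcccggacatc
Epgn promoter, chr5:91027267-91027566, plus strand: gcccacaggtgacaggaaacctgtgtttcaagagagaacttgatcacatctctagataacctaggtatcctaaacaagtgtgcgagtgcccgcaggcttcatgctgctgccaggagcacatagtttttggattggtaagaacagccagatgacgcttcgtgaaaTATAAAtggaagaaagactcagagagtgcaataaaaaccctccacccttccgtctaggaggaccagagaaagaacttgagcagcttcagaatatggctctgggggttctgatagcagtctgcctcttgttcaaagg
Btc promoter, chr5:91402945-91403244, minus strand: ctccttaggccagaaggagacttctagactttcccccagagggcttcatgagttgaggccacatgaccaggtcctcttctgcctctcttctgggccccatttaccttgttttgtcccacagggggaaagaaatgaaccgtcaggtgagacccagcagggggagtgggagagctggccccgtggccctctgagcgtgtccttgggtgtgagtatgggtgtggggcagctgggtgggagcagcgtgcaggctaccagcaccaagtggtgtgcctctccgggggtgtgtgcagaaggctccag

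The Areg window held 1 CRE, beginning 61 bases before the start, and 1 TATA box, beginning 31 bases before it. The Epgn window held 1 TATA box, beginning 86 bases before the start, and the Btc window held none of the 4 motifs. Of all 32851 RefSeq windows of this length, 1.79% held the CRE, 7.81% the AP-1 site, 13.6% the TATA box and 14.7% the TEAD site. No printed motif match overlapped another. Among the other windows, Erbb2 had 1 TEAD match and Egfr and Tgfa had none of the 4 motifs. GC content was 59.3% for Areg, 47.3% for Epgn and 60.3% for Btc. These matches describe the letters only.

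Depth differed widely between libraries and limits every value of a scarce message. Reads assigned to genes ranged from 1138318 to 31487255 in Null libraries and from 161711 to 15529242 in WT libraries, so that 3 reads, taken as the detection floor, stood at 0.0951 to 2.76 CPM in Null libraries and at 0.187 to 18.4 CPM in WT libraries. All CPM values are read counts over the library size scaled by the TMM method, and floors cover counting error only. Fermt1 had 0, 2 and 2 reads in Null libraries 1 to 3, against 16, 2 and 1040 in WT libraries 1 to 3. In CPM these were 0, 0.0634 and 0.393 in Null libraries and 12.5, 12.3 and 64.9 in WT libraries. The counts of all Null libraries and of WT library 2 lay below the floor of 3 reads. Reads outside genes took 4.63% to 5.84% of the listed reads in Null libraries and 7.15% to 12.0% in WT libraries. Markers of keratinocytes fitted the label only in part. Of 17 listed keratinocyte and epithelial markers 10 passed the filter on low counts, and the others, Krt5 among them, did not. Krt5 had at most 5 reads in any library. Itgb4, the highest of the listed markers in every library, stood at 150 to 234 CPM in Null libraries and at 222 to 313 CPM in WT libraries.

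Between genotypes the ligands and receptors did not move as a block. Of the 7 members tested, Hbegf passed the test, as lower in Null tumours, and none passed as higher (quasi-likelihood F-test of edgeR, with adjustment by Benjamini and Hochberg over 11887 genes and a threshold of 0.05). By that rule 5.79% of all tested genes were called, 2.26% as higher and 3.52% as lower in Null tumours. At an unadjusted p under 0.05 there were 2978 of all 11887 tested genes and 4 members, Areg and Ereg as higher and Hbegf and Erbb2 as lower, and DESeq2 called no member. As measured, Null and WT libraries did not overlap for 5 of the 7 tested members, nor for 30.5% of all tested genes. Areg and Ereg lay higher in Null libraries, and Erbb2, Hbegf and Nrg1 lower. Fewer cells of a type and less RNA per cell cannot be told apart in these bulk tumours.

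**Figure D1:**
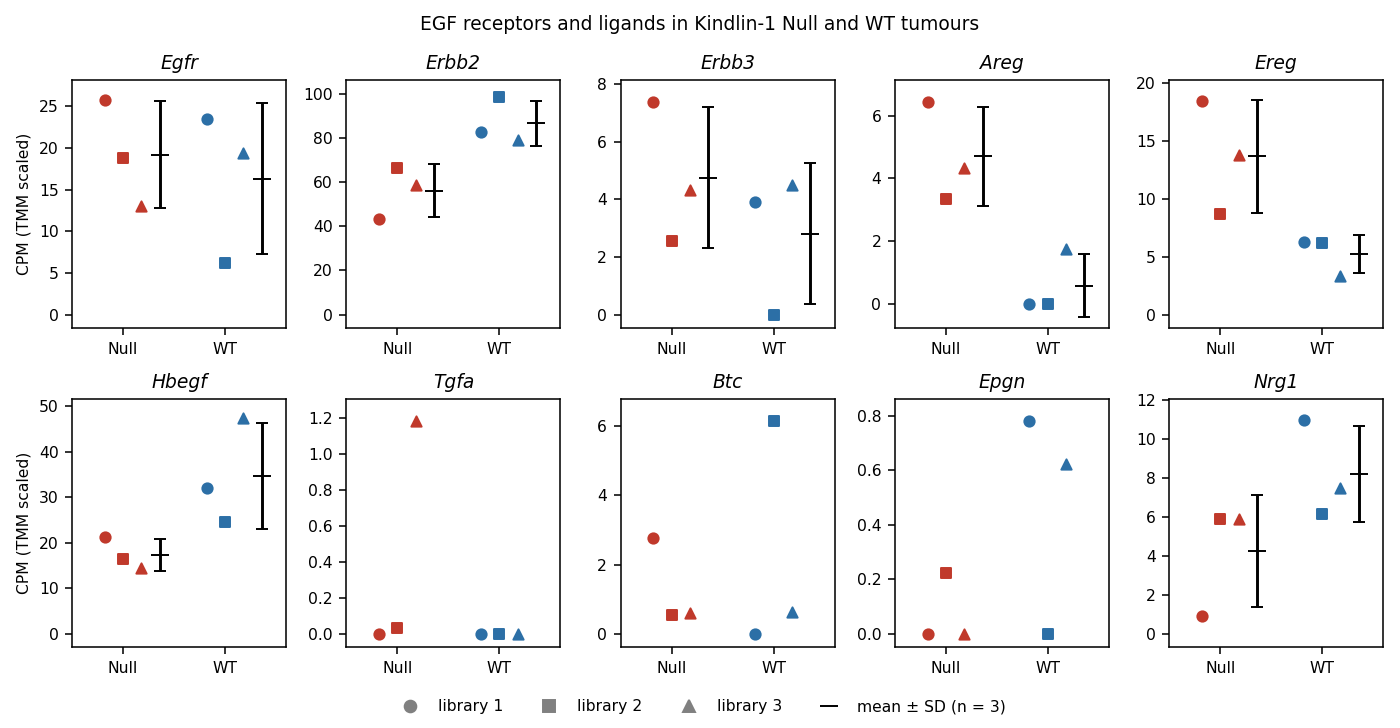
Level of each receptor and ligand gene in every library, in TMM-scaled CPM on linear axes, with Null libraries in red and WT libraries in blue. Black bars give the mean ± SD of 3 libraries for the 7 tested genes. As measured, Hbegf and Erbb2 lay lower in all Null libraries than in any WT library, and Ereg and Areg lay higher.

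Among the receptors, Erbb2, the partner receptor with no known ligand, stood at 43.3, 66.6 and 58.6 CPM in Null libraries 1 to 3 and at 82.8, 98.3 and 79.1 CPM in WT libraries 1 to 3. Every Null value was thus below every WT value, as for 14.3% of all tested genes. The log2 fold change was -0.56 (SE 0.25) and did not pass (edgeR adjusted p = 0.187). Erbb2 shares exon bases with Mien1 on the opposite strand. Reads set aside as ambiguous made up 1.72% to 2.11% of the listed reads in the 6 libraries. Whether reads of the shared bases were among them is not known, because the strand setting is not given. Mien1 itself stood at 70.9, 56.4 and 47.8 CPM in Null libraries 1 to 3 and at 47.6, 43 and 29 CPM in WT libraries 1 to 3, so its values lay the other way round from those of Erbb2. The part of the shared bases in either gene's reads was not tested.

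Egfr, the receptor of most of these ligands, had 25.8, 18.8 and 13.0 CPM in Null libraries 1 to 3 and 23.4, 6.14 and 19.4 CPM in WT libraries 1 to 3. The groups overlapped, and the WT value of 6.14 CPM was a single read of the shallow library 2. The log2 fold change was -0.08 (SE 0.37, edgeR adjusted p = 0.917). Erbb3, the neuregulin receptor with weak kinase activity, had 8, 80 and 22 reads in Null libraries and 5, 0 and 72 reads in WT libraries, with -0.01 as its log2 fold change (SE 0.53, edgeR adjusted p = 0.996). Both genes changed sign under some alternatives, so their direction was not determined.

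Hbegf was lower in Null tumours. This gene encodes a heparin-binding ligand of EGFR and ERBB4 made by keratinocytes at wound edges. It had 23, 518 and 73 reads, or 21.2, 16.4 and 14.4 CPM, in Null libraries 1 to 3, against 41, 4 and 758 reads, or 32.0, 24.6 and 47.3 CPM, in WT libraries 1 to 3. The groups did not overlap as measured, and WT library 3 was highest. The gap between 21.2 and 24.6 CPM is less than 1 read of WT library 2. The mean was 17.3 ± 3.50 CPM in Null and 34.6 ± 11.6 CPM in WT tumours (SD, n = 3 each). Hbegf fell 2.28-fold in the edgeR fit (log2 fold change -1.19, SE 0.31, adjusted p = 0.0414).

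This call was near the threshold and depended on single libraries. It was lost without WT library 3 (log2 fold change -0.88, edgeR adjusted p = 0.205), without Null library 1 (0.0866), 2 (0.110) or 3 (0.176), with the libraries of a common mouse number summed in both groups (0.122) and by DESeq2 (0.0699). The sign was negative in all 13 alternatives, of which 7 kept the call, with adjusted p between 0.0233 and 0.205.

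Ereg and Areg went the other way, and neither passed the test. Ereg, an EGFR and ERBB4 ligand induced in wounded and inflamed epithelium, stood at 18.4, 8.72 and 13.8 CPM in Null libraries 1 to 3 and at 6.25, 6.14 and 3.37 CPM in WT libraries 1 to 3. As measured, all Null values lay above all WT values, as for 16.2% of all tested genes. The WT value of 6.14 CPM was a single read of library 2, where the floor of 3 reads was 18.4 CPM. No Null value exceeded that floor, so the separation of Ereg was not established at this depth. The log2 fold change was 1.58 (SE 0.49, edgeR adjusted p = 0.0719), and over 12 alternatives it ranged from 0.99, without WT library 3, to 1.86, without WT library 1, with no adjusted p under 0.0550. Its reads numbered 20, 275 and 70 in Null libraries and 8, 1 and 54 in WT libraries. Most of them came from Null library 2 and WT library 3, so pooled reads mainly compare those libraries. Pooled over each group, the ratio of Null to WT was 2.68 (95% exact Poisson interval 2.05 to 3.56, counting error only), and without WT library 3 it was 1.55 (0.809 to 3.42).

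Areg, a low-affinity EGFR ligand that keratinocytes make in abundance in human psoriasis and squamous tumours, had 7, 106 and 22 reads in Null libraries and 0, 0 and 28 reads in WT libraries. In CPM these were 6.45, 3.36 and 4.33 for Null libraries 1 to 3, and 0, 0 and 1.75 for WT libraries 1 to 3. The 0 of WT library 2 allows a level of up to 18.4 CPM, above every Null value, and the 0 of WT library 1 allows up to 2.34 CPM, below every Null value. The log2 fold change was 1.66 (SE 0.69, edgeR adjusted p = 0.155). Over the pooled reads of each group, 135 in Null and 28 in WT, the ratio of Null to WT was 2.23 (95% exact Poisson interval 1.48 to 3.49, counting error only). Most of the Null reads came from library 2 and all of the WT reads from library 3, so this ratio mainly compares those libraries. Without WT library 3 no WT read was left, and the pooled Null level was 1.72 times the floor of 3 reads over the other WT libraries, while the lower limit of the exact Poisson interval for the ratio was 1.38. Its start-site window, printed above, holds the CRE and the TATA box, and Ereg is its neighbour on the chromosome. A link of either to the level of Areg was not tested.

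Nrg1, the ligand of ERBB3 and ERBB4, had 0.921, 5.86 and 5.90 CPM in Null libraries 1 to 3 and 10.9, 6.14 and 7.49 CPM in WT libraries 1 to 3. The Null values were all lower, but the gap between 5.90 and 6.14 CPM is less than 1 read of WT library 2. The log2 fold change was -0.78 (SE 0.51, edgeR adjusted p = 0.352).

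Tgfa, Btc and Epgn were too scarce to pass the filter. Tgfa, the classical autocrine ligand of keratinocytes, had 0, 1 and 6 reads in Null libraries and no read in any WT library. Its pooled level in Null tumours was 0.186 CPM, against a floor of 0.172 CPM for 3 reads over the WT group, so a difference was not detectable at this depth. Btc had 3, 17 and 3 reads in Null libraries and 0, 1 and 10 reads in WT libraries, a pooled ratio of Null to WT of 0.968 (95% exact Poisson interval 0.453 to 2.20). Epgn had 0, 7 and 0 reads in Null libraries and 1, 0 and 10 in WT libraries, a pooled ratio of 0.295 (0.0969 to 0.832). All Null reads of Epgn came from library 2 and all but 1 of the WT reads from library 3, so this ratio compares those libraries. With no expression filter, edgeR gave adjusted p of 0.213 for Tgfa, 0.901 for Btc and 0.383 for Epgn.

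Levels of different genes were compared as CPM per kilobase of exon, with exon lengths from the GENCODE M21 annotation. Erbb2 led in both groups, at 10.8 ± 2.27 CPM per kilobase in Null and 16.6 ± 1.96 CPM per kilobase in WT tumours (SD, n = 3 each). In Null tumours Areg (3.88 ± 1.30 CPM per kilobase), Hbegf (3.58 ± 0.724) and Ereg (3.30 ± 1.18) followed and did not differ from each other beyond their spread. Below them came Egfr (1.69 ± 0.566), Erbb3 (0.789 ± 0.406), Nrg1 (0.409 ± 0.277), Btc (0.287 ± 0.281), Tgfa (0.0623 ± 0.104) and Epgn (0.0409 ± 0.0709), each with values that overlapped those of its neighbours in this order. In Null libraries 1 to 3 the lead of Erbb2 was clear of all ligands, with 8.31, 12.8 and 11.3 CPM per kilobase, against at most 5.31 for any ligand.

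In WT tumours Hbegf, at 7.16 ± 2.40 CPM per kilobase, stood alone below Erbb2. Egfr (1.44 ± 0.799), Ereg (1.27 ± 0.395) and Nrg1 (0.791 ± 0.239) came next, with ranges that overlapped from one to the next. Btc (0.499 ± 0.748), Areg (0.479 ± 0.830), Erbb3 (0.465 ± 0.406) and Epgn (0.259 ± 0.229) could not be ordered, and Tgfa had no read. Summed over the 3 receptors, the level was 11.8, 14.9 and 13.1 CPM per kilobase in Null libraries 1 to 3 and 18.6, 19.4 and 17.6 in WT libraries 1 to 3. Summed over the 7 ligands it was 14.9, 9.09 and 10.8 in Null libraries and 9.62, 8.52 and 13.2 in WT libraries, which overlapped.

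The makeup of the ligand messages within a library does not depend on scaling between libraries. Hbegf made up 29.5%, 37.4% and 27.6% of the ligand reads per kilobase in Null libraries 1 to 3, against 68.8%, 59.6% and 73.9% in WT libraries 1 to 3. Areg made up 35.7%, 30.4% and 33.1% in Null libraries and 0%, 0% and 10.9% in WT libraries. Ereg made up 30.0%, 23.2% and 31.0% in Null libraries and 15.7%, 17.5% and 6.16% in WT libraries. Each of these 3 shares lay apart in the 2 groups as measured: per kilobase, Hbegf was the main ligand message of every WT library, while the 3 ligands stood near one another in the Null libraries. That nearness rests on the division by exon length. Of raw reads, Areg made up 13.0%, 9.56% and 10.8% in Null libraries and 0%, 0% and 2.86% in WT libraries, and Hbegf 42.6%, 46.7% and 35.8% in Null libraries and 64.1%, 57.1% and 77.3% in WT libraries. The 0% of Areg in WT library 2 is 0 of 7 ligand reads. That allows up to 41.0% of raw reads (95% exact binomial interval), above every Null share, so the separation of Areg was not established at this depth. In that library Ereg had 1 of 7 ligand reads (0.361% to 57.9% of raw reads) and Hbegf 4 of 7 (18.4% to 90.1%). Both intervals cover the raw-read shares of all Null libraries, so the separation of Ereg and Hbegf was not established there either.

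The mean share of Hbegf was 31.5% ± 5.17 in Null and 67.4% ± 7.22 in WT tumours (SD, n = 3 each). That of Areg was 33.1% ± 2.65 in Null and 3.62% ± 6.27 in WT tumours, and that of Ereg 28.1% ± 4.24 in Null and 13.1% ± 6.08 in WT tumours. For each of the 3 the exact permutation test, two-sided, gave p = 0.1, the smallest that 3 against 3 libraries allow, or 0.233 with Benjamini-Hochberg adjustment over the 7 ligands. Nrg1 (p = 0.2), Tgfa and Epgn (p = 0.4 each) and Btc (p = 1) overlapped between the groups in this exact permutation test. WT library 2 gave only 7 ligand reads in all, and its Hbegf share of raw reads, 57.1%, has a 95% exact binomial interval of 18.4% to 90.1%. In the deepest library of each group the Hbegf share of raw reads was 46.7% (43.7% to 49.7%) in Null library 2 and 77.3% (74.6% to 79.9%) in WT library 3. Hbegf reads per Ereg read came to 1.15, 1.88 and 1.04 in Null libraries 1 to 3 and to 5.13, 4 and 14.0 in WT libraries 1 to 3. The value of WT library 2 was 4 Hbegf reads over 1 Ereg read.

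**Figure D2:**
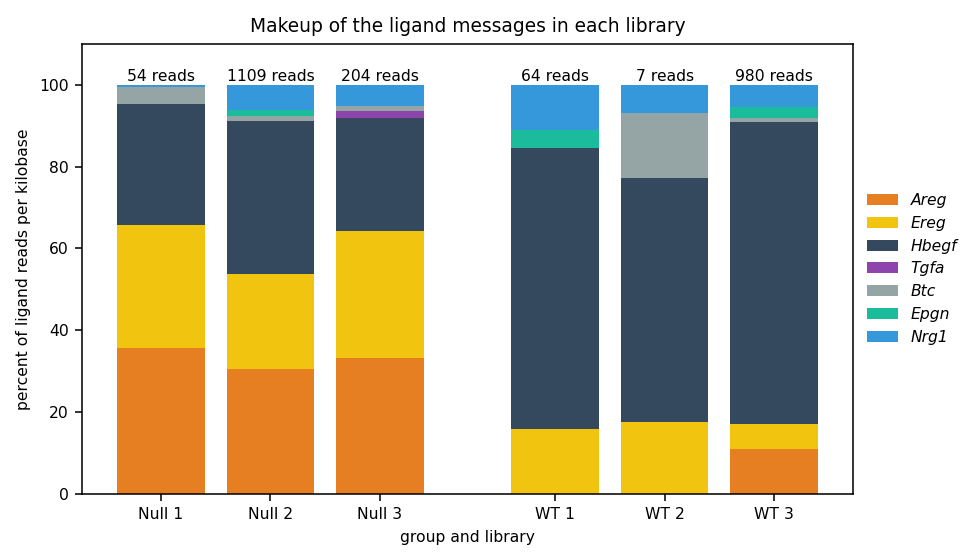
Makeup of the ligand messages in each library, as the percent of the summed reads per kilobase of the 7 ligands, with the number of ligand reads above each bar. Hbegf filled 27.6% to 37.4% of the bar in Null libraries, where Areg and Ereg filled most of the rest, and 59.6% to 73.9% in WT libraries.

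Genes that act around the receptors were taken from fixed lists. Of 10 tested genes for ligand shedding, 1 fell and none rose, beside 3.52% of all tested genes that fell. Adam12, a metalloprotease reported to cut HB-EGF, fell 2.92-fold. Its mean was 11.9 ± 7.32 CPM in Null and 37.4 ± 6.52 CPM in WT tumours (SD, n = 3 each; log2 fold change -1.54, SE 0.38, edgeR adjusted p = 0.0358). Adam17, the main sheddase of Areg, Ereg, Hbegf and Tgfa, stood at 94.8 ± 28.6 CPM in Null and 79.8 ± 0.948 CPM in WT tumours (log2 fold change 0.22, SE 0.27, edgeR adjusted p = 0.629). Adam10, which sheds Btc and EGF, stood at 108 ± 10.3 CPM in Null and 105 ± 15.3 CPM in WT tumours (edgeR adjusted p = 0.917). The iRhom genes Rhbdf1 and Rhbdf2, which bring ADAM17 to the surface, had log2 fold changes of -0.60 and -0.71 (edgeR adjusted p = 0.214 and 0.177). The list median was 0.06, beside 0.01 for all tested genes.

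Of 26 adaptors, kinases and effectors downstream of the receptors none passed in edgeR or in DESeq2 (median log2 fold change -0.04). At an unadjusted p under 0.05, 2 were higher and 4 lower, beside 2978 of all 11887 tested genes in either direction. Of 5 further receptors and ligands, Nrg2 was tested (log2 fold change -0.71, SE 0.66, edgeR adjusted p = 0.523). Erbb4 had 5 reads over all libraries, and Nrg3 had 0.

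Of 16 tested genes listed as feedback inhibitors of ERBB and ERK signalling, 3 rose in Null tumours and 0 fell. Beside them 2.26% of all tested genes rose, while the list median was -0.05. At an unadjusted p under 0.05, 5 were higher and 3 lower, beside 2978 of all 11887 tested genes in either direction. Errfi1, whose product Mig6 binds and inhibits the EGFR kinase, stood at 199, 119 and 109 CPM in Null libraries 1 to 3 and at 60.9, 30.7 and 59.6 CPM in WT libraries 1 to 3. It rose 2.53-fold (log2 fold change 1.34, SE 0.31, edgeR adjusted p = 0.0266). Spred1, an inhibitor of RAS activation, rose 2.12-fold to 193 ± 43.5 CPM in Null, against 96.9 ± 27.9 CPM in WT tumours (SD, n = 3 each; edgeR adjusted p = 0.0414). Dusp4, a phosphatase of ERK, rose 3.66-fold to 14.9 ± 7.15 CPM in Null, against 4.71 ± 1.42 CPM in WT tumours (edgeR adjusted p = 0.0443). Null library 1 was highest for all 3 genes.

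The other 13 tested genes of this list did not pass, and their values lay on both sides of 0. Dusp6, a cytosolic ERK phosphatase, stood at 0.68 (edgeR adjusted p = 0.149), Spry2 at 0.87 (0.205) and Spry4 at 1.29 (0.147), all as log2 fold changes. Lrig1, which promotes the breakdown of ERBB receptors, stood at 0.25 (0.568). Others had lower values in Null tumours, with log2 fold changes of -0.89 for Spred2, a relative of Spred1 (edgeR adjusted p = 0.0824), -0.82 for Rasa1, a RAS GTPase-activating protein (0.196), and -0.64 for Lrig2 (0.162). Whether Lrig2 acts as an inhibitor here was not tested.

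Of 13 tested ERK response genes 3 rose and 0 fell, beside 2.26% of all tested genes that rose, with a list median of 0.46. At an unadjusted p under 0.05, 4 were higher and 1 lower, beside 2978 of all 11887 tested genes in either direction. DESeq2 called 2 of the list. Ier3, an early response gene, rose 2.53-fold to 103 ± 37.8 CPM in Null, against 39.2 ± 2.06 CPM in WT tumours (SD, n = 3 each; edgeR adjusted p = 0.0243). Etv1, an ETS transcription factor, rose 2.54-fold to 51.9 ± 16.6 CPM in Null, against 16.3 ± 8.91 CPM in WT tumours (edgeR adjusted p = 0.0344). Fosl1, an AP-1 factor, had 8, 116 and 27 reads in Null libraries and 0, 1 and 6 in WT libraries, and its values in CPM overlapped (edgeR adjusted p = 0.0365). Egr1, the best known early ERK target, stood at 54.9 ± 28.8 CPM in Null and 55.4 ± 24.8 CPM in WT tumours (edgeR adjusted p = 0.909).

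Each of these 7 calls could be lost by leaving out 1 library. By edgeR's adjusted p, Adam12 lost its call without WT library 1 (0.0591), 2 (0.0507) or 3 (0.0903) or Null library 1 (0.0865) or 3 (0.112). Errfi1 lost it without WT library 2 (0.0507) or 3 (0.0643) or Null library 1 (0.106), and Ier3 without WT library 3 (0.0789) or Null library 1 (0.0887) or 3 (0.0531). Spred1 lost it without every library but WT library 2 (highest 0.134, without Null library 1), and Dusp4 without every library but WT library 1 (highest 0.265, without WT library 3). Etv1 lost it without WT library 2 (0.0507) or 3 (0.120) or Null library 1 (0.128) or 3 (0.0767). Fosl1 was tested in 3 of these 6 fits and lost its call without WT library 1 (0.0634) or Null library 1 (0.135), and its log2 fold change of 3.51 stood at 2.60 in the limma-voom fit with the mouse number as a random effect (adjusted p = 0.160). With the WT libraries of a common mouse number summed, Adam12 (0.0534), Dusp4 (0.0619), Errfi1 (0.0536), Etv1 (0.0519) and Ier3 (0.0503) also lost their calls in edgeR, and with such libraries summed in both groups Spred1 did (0.0702). Further losses were Adam12 with the random effect (limma-voom adjusted p = 0.0663), Dusp4 (0.0603) and Fosl1 (0.0677) by DESeq2, and Spred1 with the stricter filter of 10 CPM in 3 libraries (edgeR adjusted p = 0.0512).

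**Figure D3:**
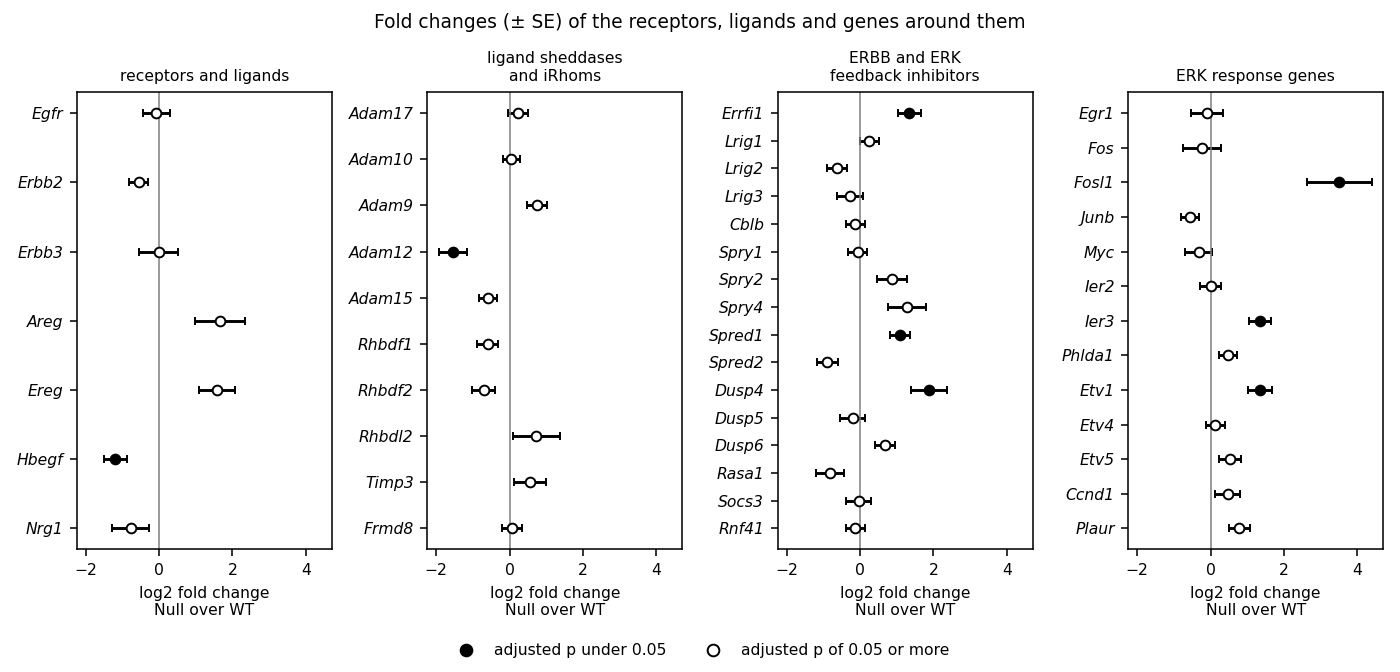
Log2 fold change of Null over WT (points) with its SE (bars) for the tested receptors and ligands and for 3 lists of genes around them. Filled points have an edgeR adjusted p under 0.05: Hbegf and Adam12 as lower, and Errfi1, Spred1, Dusp4, Fosl1, Ier3 and Etv1 as higher in Null tumours.

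Markers of several cell types moved with genotype beside the ligands. Of all 11887 tested genes, 2.26% were called higher and 3.52% lower in Null tumours, and 2978 had an unadjusted p under 0.05. The 17 keratinocyte and epithelial markers summed to 401 to 426 CPM in Null libraries and to 436 to 676 CPM in WT libraries. Of the 10 tested, Krt14 and Perp fell and none rose (median log2 fold change -0.19), and Grhl3 had no read in any library. Itga6, Trp63, Cdh1, Krt8 and Krt17 had log2 fold changes above 0, and the other tested markers below 0. At an unadjusted p under 0.05, 1 was higher (Itga6) and 4 were lower. Itgb4 weighed heavily in the summed levels. The skeletal muscle markers summed to 45.6 to 119 CPM in Null libraries and to 570 to 1443 CPM in WT libraries, with 9 of 9 tested lower (Ttn, Tnnt3, Myh4, Actn3, Ckm, Des, Acta1 and Mylpf by size of change, then Tnni2). The mast cell and neutrophil markers summed to 1485 to 4715 CPM in Null libraries and to 434 to 1130 CPM in WT libraries. Most of each sum came from the mast cell genes Cma1, Mcpt4 and Tpsb2. Of the 10 tested, 5 were higher (Cma1, Mcpt4, Tpsb2, Ms4a2 and S100a9). Among the neutrophil markers S100a8 (log2 fold change 2.14, edgeR adjusted p = 0.0641) and Cxcr2 (0.90, 0.287) did not pass. Csf3r did not pass either and lay the other way (-0.43, 0.291).

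The 10 macrophage and monocyte markers, of cells that can make Hbegf, Areg and Ereg, summed to 5554 to 7172 CPM in Null libraries and to 3052 to 5812 CPM in WT libraries. None of them passed in edgeR or DESeq2, and 1, Lyz2, was higher at an unadjusted p under 0.05. Lyz2 weighed heavily in these sums, at 2210 to 4247 CPM in Null libraries and 517 to 2193 CPM in WT libraries. Csf1r, C1qa, C1qb and Fcgr1 had log2 fold changes below 0, and the other macrophage and monocyte markers above 0. Fibroblast markers summed to 13052 to 15595 CPM in Null and 7221 to 13312 CPM in WT libraries, with Dcn and Lum higher and Col1a2 and Thy1 lower. Endothelial markers summed to 159 to 189 CPM in Null and 124 to 203 CPM in WT libraries, and none passed in edgeR or DESeq2, nor at an unadjusted p under 0.05. Of 5 tested T and NK cell markers Prf1 was higher, and Cfd and Lpl of 3 adipocyte markers were lower, as was Scn7a, a marker of Schwann cells and nerve. The part of these cell types in the levels of Hbegf, Ereg, Areg and Erbb2 was not tested.

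The genes whose log2 CPM followed Hbegf most closely over the 6 libraries were Poli (Pearson r = 0.992), Timp1 (0.990) and 4933427D14Rik (0.984), among 9971 tested genes with a mean of at least 10 CPM. Timp1, an inhibitor of metalloproteases, stood at 150 ± 13.8 CPM in Null and 205 ± 41.8 CPM in WT tumours (SD, n = 3 each). Over so few libraries 49 genes had an r above 0.95, and libraries of a common depth or genotype raise it, so this is a description only.

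**Figure D4:**
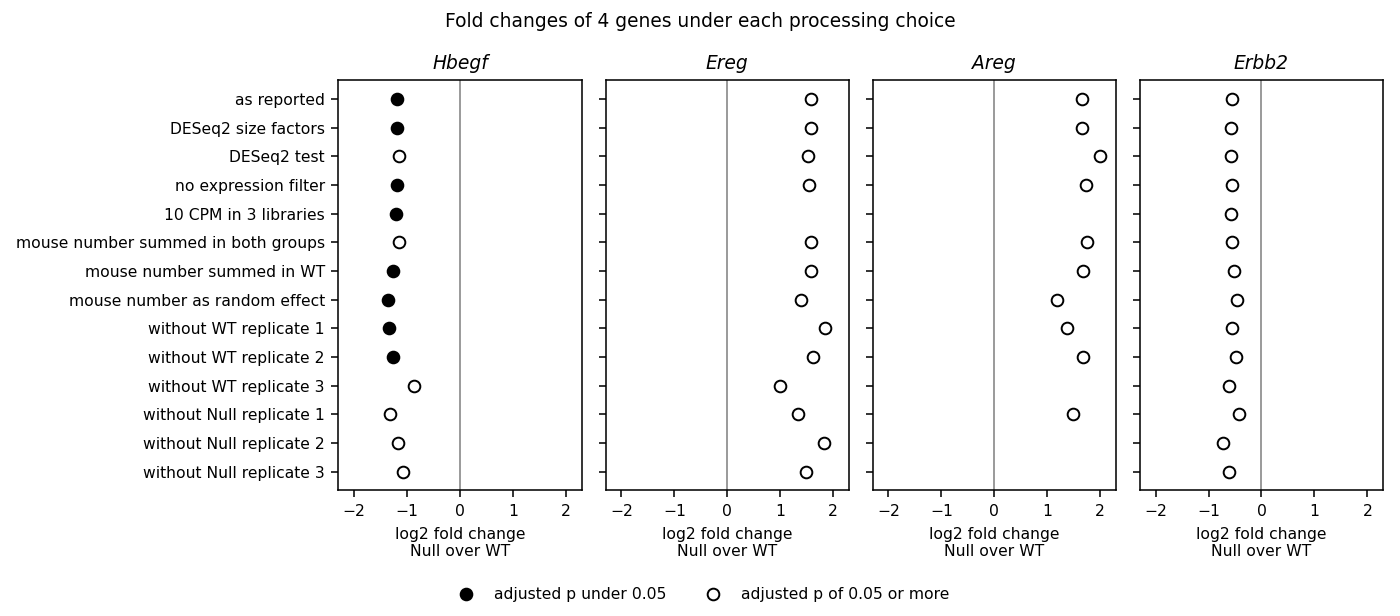
Log2 fold change of Null over WT for Hbegf, Ereg, Areg and Erbb2 as reported and under each of 13 alternatives (rows), filled where the adjusted p was under 0.05. The points of each gene stayed on one side of 0, Hbegf was filled in 7 of 13 alternatives and the other 3 genes in none, and a missing point marks a fit in which the gene failed the filter on low values.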

How the data were processed

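RNA was measured in 3 Kindlin-1 Null and 3 Kindlin-1 WT tumour libraries. The deposited files hold raw whole-number read counts per Ensembl gene, 1 file per library. Per the submitters' processing notes TopHat2, Cuffdiff, DESeq2 and build mm9 were used, with no role stated. The counting step (program, annotation and strand setting) is not given in the sources used here. The 5 closing lines for reads assigned to no gene stayed out of library sizes and tests.

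GENCODE M21 gave symbols for 32919 of 37991 identifiers (86.6%), and exon lengths. Its build differs from mm9, so the coordinates printed belong to RefSeq's GRCm38.p6 sequences only. Counts were tested in R 4.3.3 with edgeR 4.0.16 (quasi-likelihood, robust fit, TMM scaling, default expression filter), with SE from the fold change and F statistic. The procedure was checked on simulated counts of independent libraries with a common dispersion for all genes. That check does not cover libraries that share a mouse number, or a dispersion that differs between genes. DESeq2 1.42.0, limma-voom 3.58.1, other scalings and filters, summed mouse numbers and leaving out each library served as alternatives. Ligand shares were compared by exact permutation. Intervals and floors cover counting error only.

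The members, lists and tests were chosen with earlier results of these data known. Besides the members, called genes of the pathway lists are named, and for a called member the 3 most alike genes. Genes of the marker lists are named where called, without levels, except for an item that is not reported here. Further pathway and marker genes (Adam17, Adam10, Rhbdf1, Rhbdf2, Nrg2, Dusp6, Spry2, Spry4, Lrig1, Lrig2, Spred2, Rasa1, Egr1, Krt5, Itgb4, Itga6, Trp63, Cdh1, Krt8, Krt17, S100a8, Cxcr2, Csf3r, Lyz2, Csf1r, C1qa, C1qb, Fcgr1) were picked after their values were seen, as examples.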

Additional observations from a re-analysis of the deposited data

How the results depend on the processing

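Of the receptors and ligands, Hbegf, Ereg, Areg, Erbb2 and Nrg1 kept their direction in every alternative in which they were tested. The count of members lower in Null tumours was 1 as reported, 0 by DESeq2, 0 with mouse number summed in both groups, and between 0 and 1 with 1 library left out. Egfr stood at 0.049 with mouse number summed in both groups and between -0.29 and 0.15 with 1 library left out. Erbb3 stood at 0.22 by DESeq2, 0.023 without an expression filter and 0.017 with mouse number summed in both groups, and lower than reported at -0.68 with mouse number as a random effect and -0.31 without Null library 1 (log2 fold changes). The cause of these changes was not tested.

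Of all tested genes 688 were called as reported, 1156 with mouse number as a random effect (546 of the 688 among them) and between 179 (without Null library 1) and 855 (without WT library 1) with 1 library left out. Differences in ligand share, Null minus WT, ranged from -39.8 to -24.5 percentage points for Hbegf, from 11.5 to 21.3 for Ereg and from 10.1 to 33.1 for Areg over 8 alternatives. Of these, the share of raw reads was chosen after seeing the data. The Btc difference lay between -6.28 and 1.69 with 1 library left out, the higher value without WT library 2 and its single Btc read. No paired analysis was possible because the mouse numbers in the titles differ between the groups and the library numbers 1 to 3 only name libraries within a group, in the order of deposit. Depth limits Tgfa, Btc, Epgn and Areg most, and in WT library 2 a single read stood at 6.14 CPM.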
